A study of Arabidopsis thaliana with 27 samples.

Results

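AT1G78830 and AT1G78850 are neighbouring Arabidopsis thaliana genes that encode curculin-like lectins with a mannose-binding domain, and their transcripts were followed here after spraying with 6 defence-related agents. They were chosen by their annotation, as the 2 genes of this pair among 416 genes with a name on the array, and each was spotted 2 times. Plants of ecotype Columbia, 28 days old, were sprayed with 5 mM SA (salicylic acid), 1 mM INA, 0.5 mM BTH, 10 mM BABA (beta-aminobutyric acid), 1 mM ET (ethephon, which releases ethylene) or 0.1 mM MeJA (methyl jasmonate) and harvested 2, 5, 10 and 24 h later. The RNA set against each of them came from untreated plants. INA and BTH are synthetic compounds used as functional analogs of SA, and BABA is an amino acid used to prime resistance. Each array compared Cy5-labelled cDNA of sprayed plants with Cy3-labelled cDNA of untreated plants, every array had the same dye orientation, and the labels mention no mock-sprayed controls. Sprayed plants were kept at high humidity, and the labels call the tissue leaves in one place and shoots with no root in another. Ratios hold no level of expression, so the tissue could not be checked against markers.

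The 24 conditions (6 agents at 4 times) were measured on 27 arrays, with 2 arrays each for the 10 h and 24 h samples of INA and the 5 h sample of BTH. Material of replicate experiments was pooled before RNA extraction and the repeat arrays shared their RNA, so each condition counts as 1 sample. Each value is a log2 ratio, treated over untreated plants, after every array was centred on the median of its spots, and a log2 ratio of 1 is a doubling. The base of the deposited logarithm was taken as 2, and folds rest on that. The arrays held 1204 to 2358 spots with a value, and their medians before centring ran from -0.76 to 1.49. Because there are few arrays, their number limits the precision. The p-values measure only the spread between agents and times around the model, and some of that spread may be technical.

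Mannose-binding lectins of this kind share a fold with the lectins of snowdrop and other monocots and with curculin, a sweet-tasting protein of Curculigo fruit. They bind mannose-rich glycans, such as those on glycoproteins and on microbial surfaces, and several plant lectins accumulate after wounding, pathogen attack or hormone treatment. The AT1G78850 protein has been reported to co-purify with a secreted purple acid phosphatase from phosphate-starved Arabidopsis cells. SA is the central hormone of defence against biotrophic pathogens, while ethylene and jasmonate act in defence against necrotrophs and, for jasmonate, against chewing insects.

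The genes lie on chromosome 1 with 1 annotated protein-coding gene, AT1G78840, between them. AT1G78820 lies on the other side of AT1G78830, and AT1G78860 follows AT1G78850. None of these 3 neighbours was among the named spots, so their transcripts were not analysed here. All 4 spots of the pair gave a value on all 27 arrays. The 2 spots of AT1G78830 differed by a median of 0.12, and by 0.51 at most, on the first INA 24 h array. The spots of AT1G78850 differed by a median of 0.13, and by 0.95 at most, on the second BTH 5 h array. Arrays hybridised with the same RNA differed by 0.38 to 0.96 for AT1G78830 and by 0.06 to 0.55 for AT1G78850. AT1G78830 read 1.15 on the first and 0.72 on the second INA 10 h array, -0.42 and -0.80 on those of INA 24 h, and 2.08 and 1.12 on those of BTH 5 h. For AT1G78850 the first and second INA 10 h arrays gave 0.55 and 0.04, those of INA 24 h gave -0.21 and -0.76, and those of BTH 5 h gave 1.28 and 1.22. The second array was the lower one in every case, and each pair was averaged.

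**Figure D1:**
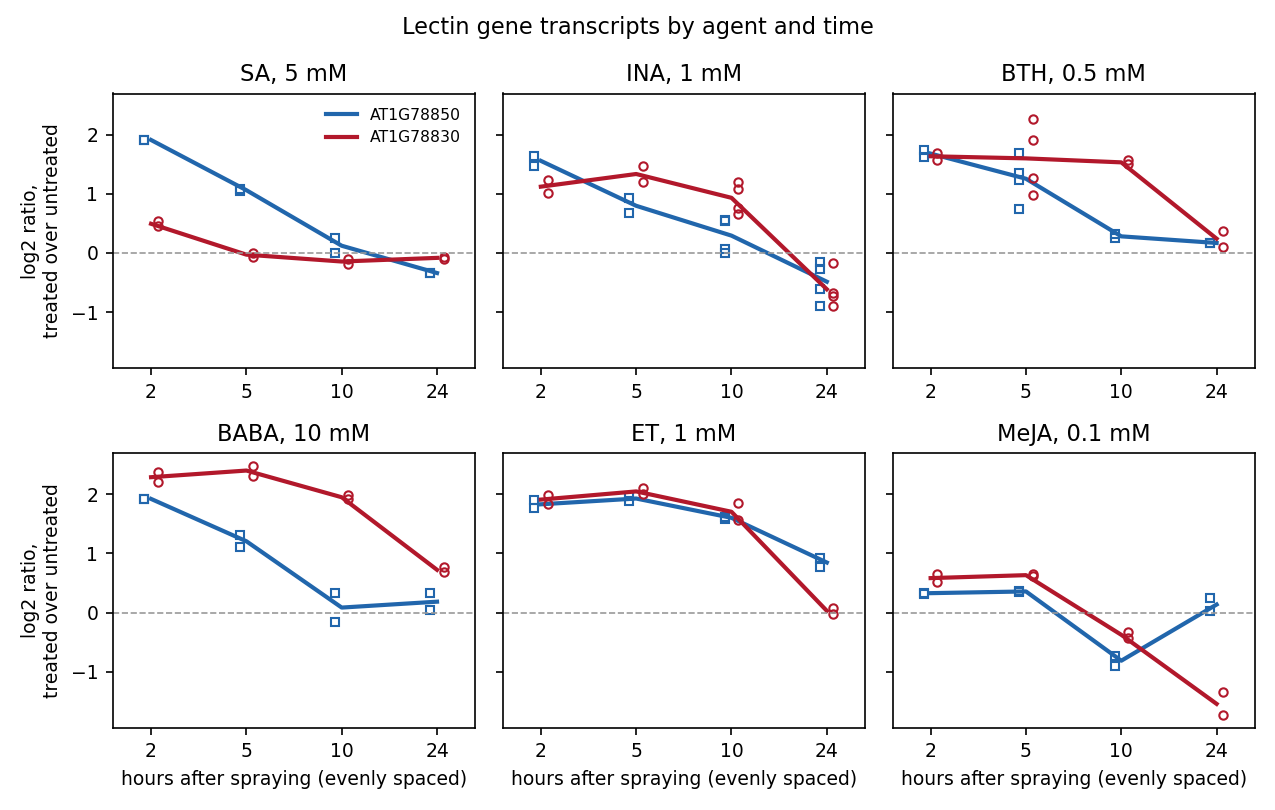
Log2 ratio of treated over untreated plants (vertical axis) against hours after spraying (horizontal axis, times evenly spaced), with 1 panel for each agent. Lines join the condition means, open symbols are single spots on single arrays (AT1G78850 blue squares, AT1G78830 red circles), and the dashed line marks 0. AT1G78830 reached 2.40 at 5 h of BABA and -1.54 at 24 h of MeJA, its highest and lowest conditions.

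Every agent was compared with untreated plants to show where the lectin transcripts differed. AT1G78830 rose under BABA, ET, BTH and INA, and AT1G78850 under all of these and under SA. Neither gene passed the threshold under MeJA. The mean over the 4 times of each agent was tested against 0 in 1 model for all 180 genes with enough values, and the threshold was an adjusted p of 0.05 (limma, Benjamini-Hochberg over the 180 genes).

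BABA gave AT1G78830 its highest ratios. At 2, 5, 10 and 24 h they were 2.29, 2.40, 1.95 and 0.72, with median centring above the ratio of every other agent at each of the 4 times. Before centring BABA was highest at 5, 10 and 24 h but not at 2 h. There its spots read 1.612 and 1.445, against 3.17 and 3.03 under ET. The mean of 1.84 ± 0.19 (SE from the model, 4 times) is a 3.58-fold rise, with an adjusted p of 1.2e-08 (limma). Unless marked SD, values after ± are such SEs, which pool the spread of all conditions around the model. They are not SEs of an agent's own 4 values, whose SD here was 0.77. AT1G78850 under BABA had 1.92 at 2 h and 1.20 at 5 h, and then 0.08 at 10 h and 0.18 at 24 h. Its values at the late times lay near 0 while those of its neighbour at 10 h did not. The mean of AT1G78850 was 0.85 ± 0.20, with an adjusted p of 0.00063 (limma). By comparison, 33.9% of the 180 genes were called higher under BABA. The AT1G78850 call was lost when the model held no term for time (adjusted p = 0.054, limma).

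Under ET both genes rose and ran close together for the first 10 h. AT1G78850 had ratios of 1.83, 1.93, 1.60 and 0.85 at the 4 times, and this was its highest mean. AT1G78830 had 1.91, 2.05, 1.70 and 0.03 at the same times. Up to 10 h the genes were within 0.12 of each other at each time, and at 24 h AT1G78850 stayed above 0 while AT1G78830 was back at the array median. Means were 1.55 ± 0.20 for AT1G78850 (2.93-fold) and 1.42 ± 0.19 for AT1G78830 (2.68-fold), with adjusted p-values of 5.7e-07 and 1.1e-06 (limma). ET had 32.2% of all tested genes called higher.

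BTH gave AT1G78830 similar ratios at 2 and 10 h. They were 1.63, 1.60 and 1.53 at 2, 5 and 10 h and 0.24 at 24 h. The 5 h value averages 2 arrays that read 2.08 and 1.12, so a steady course through 5 h rests on that average. AT1G78850 had 1.68 and 1.25 at 2 and 5 h, but 0.28 and 0.17 at 10 and 24 h. The first gene therefore held its ratio to 10 h and the second did not. AT1G78830 averaged 1.25 ± 0.19 (2.38-fold, adjusted p = 4.6e-06, limma) and AT1G78850 averaged 0.85 ± 0.20 (1.80-fold, adjusted p = 0.00086). The share of tested genes called higher under BTH was 31.7%. Without a term for time the AT1G78850 call was lost (adjusted p = 0.063, limma).

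INA gave smaller means and a turn of sign at 24 h. AT1G78830 had 1.12, 1.33 and 0.93 at 2, 5 and 10 h and -0.61 at 24 h. AT1G78850 had 1.56, 0.80, 0.29 and -0.49 at the 4 times. Both genes were above the array median at 3 of 4 times and below it at 24 h. The means were 0.69 ± 0.19 for AT1G78830 (adjusted p = 0.0033, limma) and 0.54 ± 0.20 for AT1G78850 (adjusted p = 0.022), beside 32.8% of genes called higher. Neither call held without the 2 h conditions (0.55 and 0.20), without the 5 h conditions (0.48 and 0.45) or without a term for time, and the AT1G78850 call was also lost with the second arrays alone (0.41) and with the second spot alone (0.47).

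SA is the natural hormone of which INA and BTH are analogs. AT1G78850 had 1.91, 1.06, 0.12 and -0.34 at 2, 5, 10 and 24 h. AT1G78830 had 0.49 at 2 h, and -0.03, -0.14 and -0.08 afterwards. The ratio of AT1G78850 at 2 h was 3.75-fold, close to that under BABA, while AT1G78830 lay between -0.14 and -0.03 from 5 h on. AT1G78850 averaged 0.69 ± 0.20 and passed the threshold (adjusted p = 0.0038, limma), in a comparison where 37.2% of genes were called higher. AT1G78830 averaged 0.06 ± 0.19 (adjusted p = 0.79), with a 95% interval of -0.33 to 0.45. The AT1G78850 mean was 0.28 without the 2 h conditions (adjusted p = 0.25), and the call was also lost without 5 h (0.56) and without a term for time.

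MeJA gave the lowest values of both genes. AT1G78830 had 0.58 and 0.63 at 2 and 5 h, then -0.38 at 10 h and -1.54 at 24 h. AT1G78850 had 0.33, 0.36, -0.81 and 0.14. The early ratios were above 0 and the 24 h values of the genes lay on different sides of the median. The mean of AT1G78830 was -0.18 ± 0.19 (adjusted p = 0.47, limma) and that of AT1G78850 was 0.0015 ± 0.20 (adjusted p = 0.99). MeJA had 22.2% of genes called higher and 23.9% called lower.

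**Figure D2:**
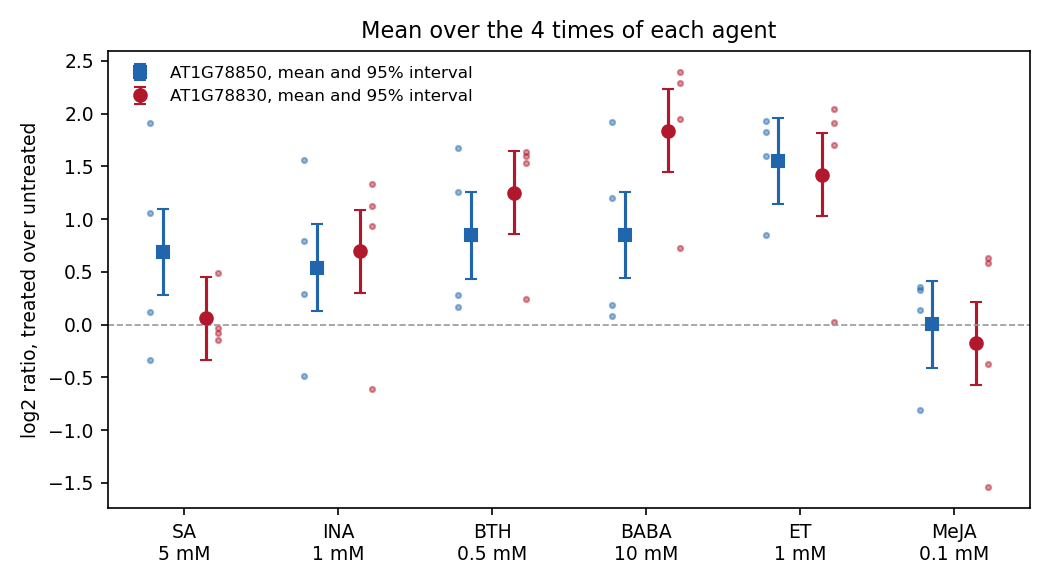
Mean log2 ratio over the 4 times of each agent (large symbols, AT1G78850 blue squares and AT1G78830 red circles) with its 95% confidence interval from the model, and the 4 single condition values as small dots beside it. The interval excludes 0 for AT1G78850 under 5 agents and for AT1G78830 under 4.

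The zero of these ratios is the median spot, which matters for the size of each mean. TUA5, an alpha-tubulin gene on 54 spots, had a mean below 0 under every agent, down to -1.36 under BTH and -1.16 under SA. With arrays centred on TUA5, the median of all tested genes moved to 1.40 for BTH, 1.22 for SA, 0.92 for INA, 0.88 for MeJA, 0.48 for ET and 0.27 for BABA. Without centring it moved to 0.85 for SA, 0.77 for ET, 0.69 for INA, 0.38 for BABA, 0.36 for BTH and 0.25 for MeJA, and AT1G78830 passed under SA there too (0.85). On the TUA5 scale the mean of AT1G78830 was 1.22 under SA and 0.75 under MeJA, and that of AT1G78850 was 0.92 under MeJA, all 3 past the threshold. Relative to the median of all genes on that scale, these values were at or near 0, as they were with median centring. All 9 calls against untreated plants were kept under both scalings. Both moved the median gene upward under every agent, which favours calls of higher ratios. Keeping them is therefore little test of these 9 calls.

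The agents were then compared with each other, which removes a dye effect common to all arrays. The agents differed for both genes, with an adjusted p of 2.4e-06 for AT1G78830 and 0.0012 for AT1G78850 (moderated F-test, limma), as they did for 86.1% of all tested genes. All 15 pairs of agents were compared, at the same times and at unequal doses, with p-values adjusted over the 180 genes of each pair.

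With median centring the means of AT1G78830 ran in the order BABA, ET, BTH, INA, SA and MeJA, and no neighbours in it differed past the threshold. Its top depends on the scaling. On the TUA5 scale BABA minus BTH was -0.51 and ET minus BTH was -0.82 (adjusted p = 0.018, limma), and after quantile normalization BABA minus BTH was -0.18 and ET minus BABA 0.33. BABA minus BTH, 0.59 ± 0.27 with median centring, did not pass either (adjusted p = 0.074). BABA exceeded SA by 1.78 ± 0.27 (adjusted p = 4.2e-05, limma; 20% of genes higher). ET exceeded SA by 1.36 ± 0.27 (adjusted p = 0.00025; 32.2% higher) and BTH exceeded SA by 1.19 ± 0.27 (adjusted p = 0.0012; 19.4% higher). The analog INA and SA differed by 0.63 with an interval from 0.08 to 1.19, which did not pass (adjusted p = 0.15; 2.78% of genes higher and 3.89% lower), though it passed without the 24 h conditions (1.02, adjusted p = 0.028). BTH minus INA, 0.56 with median centring (adjusted p = 0.12), passed on the TUA5 scale (1.04, adjusted p = 0.0069) and after quantile normalization (0.80, adjusted p = 0.041). BABA exceeded INA by 1.15 ± 0.27 (adjusted p = 0.0053; 9.44% higher), a call kept under 16 of 21 alternatives and lost, among others, on the TUA5 scale (0.53, adjusted p = 0.13) and after quantile normalization (0.62, adjusted p = 0.20). MeJA lay below BABA by 2.01 ± 0.27 (difference -2.01, adjusted p = 1.3e-06; 31.7% lower), and its differences were -1.60 from ET (12.8% lower), -1.43 from BTH (17.8% lower) and -0.87 from INA (25.6% lower), with adjusted p-values up to 0.0097. The difference from INA was also kept under 16 of 21 alternatives.

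ET minus INA for AT1G78830 was 0.73 ± 0.27 (adjusted p = 0.037, limma; 20% of genes higher). It was 0.58 with the replicate number of the arrays as a block (adjusted p = 0.0784), and was kept under 11 of 21 alternatives. BABA minus SA and MeJA minus BABA were kept under all 21 alternatives tried.

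For AT1G78850, with median centring, ET had the highest mean and MeJA the lowest, and BABA, BTH, SA and INA had means from 0.54 to 0.85. ET minus BTH was 0.70 ± 0.28 and did not pass (adjusted p = 0.066, limma), and it was -0.29 on the TUA5 scale, where BTH stood above ET. ET exceeded its neighbour in the order, BABA, by 0.70 ± 0.28 (adjusted p = 0.043, limma; 24.4% of genes higher), a call kept under 12 of 21 alternatives. ET also exceeded SA by 0.86 ± 0.28 (adjusted p = 0.013) and INA by 1.01 ± 0.28 (adjusted p = 0.0059), calls kept under 16 and 17 of 21 alternatives. On the TUA5 scale these differences were 0.064 (adjusted p = 0.89) and 0.49 (adjusted p = 0.27). MeJA minus ET was -1.55 ± 0.28 (adjusted p = 0.00023). MeJA also lay below BABA by a difference of -0.85, below BTH by -0.84 and below SA by -0.69 (32.2% of genes lower), with adjusted p-values up to 0.04. The calls against BABA, BTH and SA were kept under 14, 15 and 14 of 21 alternatives, and MeJA minus BABA was -0.19 on the TUA5 scale (adjusted p = 0.64) and MeJA minus SA -0.39 without the 2 h conditions (adjusted p = 0.27). The SA analogs did not differ from SA past the threshold. INA minus SA was -0.15 with an interval of -0.73 to 0.43, and BTH minus SA was 0.16 with an interval of -0.42 to 0.74.

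The times were compared over all agents, to show how long the ratios lasted. Over the 6 agents AT1G78830 averaged 1.34 ± 0.73, 1.33 ± 0.90, 0.93 ± 0.98 and -0.21 ± 0.79 at 2, 5, 10 and 24 h (SD, n = 6 agents). AT1G78850 averaged 1.54 ± 0.61, 1.10 ± 0.52, 0.26 ± 0.77 and 0.08 ± 0.47 at the same times. AT1G78830 held its mean until 5 h and had its largest step between 10 and 24 h, and AT1G78850 had its largest step between 5 and 10 h. At 2 h all 6 agents gave ratios above 0 for both genes.

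The late times (10 and 24 h) were set against the early times (2 and 5 h) within each agent. Both genes fell. The mean over agents of late minus early was -0.97 ± 0.25 for AT1G78830 (adjusted p = 0.0095, limma) and -1.14 ± 0.18 for AT1G78850 (adjusted p = 0.00033), where 16.1% of all tested genes were called lower. Times differed for both genes (adjusted p = 6.5e-06 for AT1G78830 and 2.4e-05 for AT1G78850, moderated F-test, limma), as for 57.8% of genes. The contrast of 24 h with 2 h was -1.54 ± 0.22 for AT1G78830 (2.92-fold lower, adjusted p = 5.9e-06) and -1.45 ± 0.23 for AT1G78850 (2.73-fold lower, adjusted p = 2.2e-05), with 23.9% of genes called lower. The AT1G78830 late call was lost without centring (-0.92, adjusted p = 0.10) and on the TUA5 scale (-0.57, adjusted p = 0.0754), and the 24 h call of AT1G78850 was lost on the TUA5 scale (-0.61, adjusted p = 0.051). With median centring TUA5 itself had a 24 h minus 2 h contrast of -0.84 (adjusted p = 0.0011, limma) and a late minus early of -0.40. Moving to the TUA5 scale takes these falls out of the contrasts of every gene.

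With median centring, both late values of AT1G78830 lay below both of its early values under each of the 6 agents. The same held for AT1G78850. For AT1G78830 the margin was small under BTH (1.53 at 10 h, 1.60 at 5 h) and under SA (-0.083 at 24 h, -0.0285 at 5 h). The second BTH 5 h array alone read 1.12, below the 10 h value. Under BTH the order thus rests on the average of 2 arrays. Before centring the pattern did not hold under every agent. The spots of AT1G78830 under BABA then read 1.612 and 1.445 at 2 h, but 2.963 and 2.895 at 10 h. Those of AT1G78850 under MeJA read 0.262 and 0.275 at 2 h, but 0.763 and 0.55 at 24 h. Counted with median centring alone, 4 of the 137 genes with a value in all 24 conditions had the pattern under all 6 agents (2.92%). The pair makes up 2 of them. The other two, named after their values were seen, are AT1G20440 (COR47, a cold-induced dehydrin) and AT4G27280, an EF-hand gene. For AT1G78830 the late mean was -0.96 and the early mean 0.61 under MeJA, its widest gap, against -0.11 late and 0.23 early under SA, its narrowest. For AT1G78850 the late mean was -0.11 and the early mean 1.48 under SA, its widest gap, and 1.22 late and 1.88 early under ET, its narrowest. With 2 times in each phase, no single agent's difference passed the threshold for either gene, where 0% to 1.11% of genes were called lower (0.556% for BABA and MeJA). Whether the fall differed between agents was tested directly and gave an adjusted p of 1.0 for both genes (moderated F-test, limma), as 0% of the 180 genes passed; 7 of them had an unadjusted p under 0.05.

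**Figure D3:**
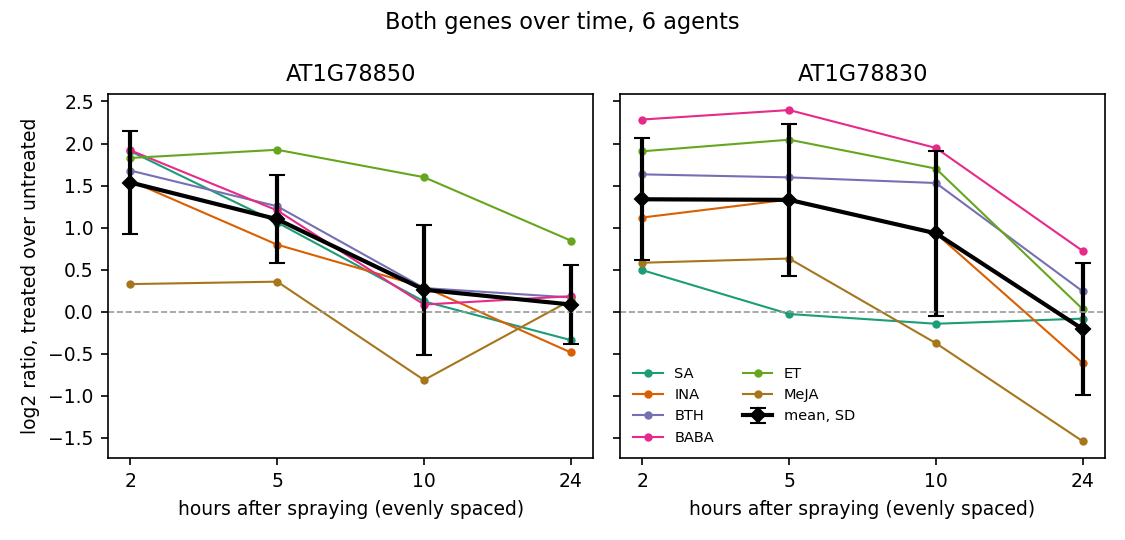
Log2 ratio of treated over untreated plants against hours after spraying (evenly spaced) for AT1G78850 on the left and AT1G78830 on the right. Thin lines are the 6 agents and the black line is their mean with the SD over agents. The means at 24 h are 0.08 for AT1G78850 and -0.21 for AT1G78830, against 1.54 and 1.34 at 2 h.

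Close homologs on a cDNA array can hybridise to each other's spots, so the genes were also compared on the same arrays. Over the 24 conditions the difference AT1G78850 minus AT1G78830 averaged -0.10 ± 0.80 (SD), which did not differ from 0 (two-sided permutation test with 100000 sign flips, p = 0.54). AT1G78850 was the higher gene in 8 conditions and the lower in 16. On 6 of the 27 arrays both spots of AT1G78850 lay above both spots of AT1G78830, on 14 they lay below, and on 7 the spots overlapped.

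In 6 conditions the genes differed by more than 0.95, the largest gap seen between 2 spots of the same gene. AT1G78850 had 1.91 and AT1G78830 had 0.49 at 2 h of SA, and 1.06 and -0.03 at 5 h of SA. The reverse was seen under BABA, with 1.20 for AT1G78850 and 2.40 for AT1G78830 at 5 h, and 0.08 and 1.95 at 10 h. At 10 h of BTH AT1G78850 had 0.28 and AT1G78830 had 1.53. At 24 h of MeJA AT1G78850 had 0.14 and AT1G78830 had -1.54. So the spots did not read the same ratio on these arrays, with AT1G78850 higher in 3 conditions and lower in 3. Each of these 6 conditions was measured on a single array. Arrays of the same RNA could differ in the order of the genes. At 5 h of BTH, AT1G78850 had 1.28 and AT1G78830 had 2.08 on the first array, but 1.22 and 1.12 on the second. The part that cross-hybridisation between the pair, or with the homologs next to them, has in the ratios was not tested.

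By agent the difference averaged 0.63 for SA, 0.18 for MeJA, 0.13 for ET, -0.15 for INA, -0.41 for BTH and -0.99 for BABA. It was below 0 at all 4 times of BABA, and lower under BABA than under SA at each of the 4 times. Permuting agents within times gave p = 0.030 for a difference between agents, and permuting times within agents gave p = 0.049 for a difference between times (100000 permutations each). Adjusted over these 3 tests both became 0.073 and did not pass.

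**Figure D4:**
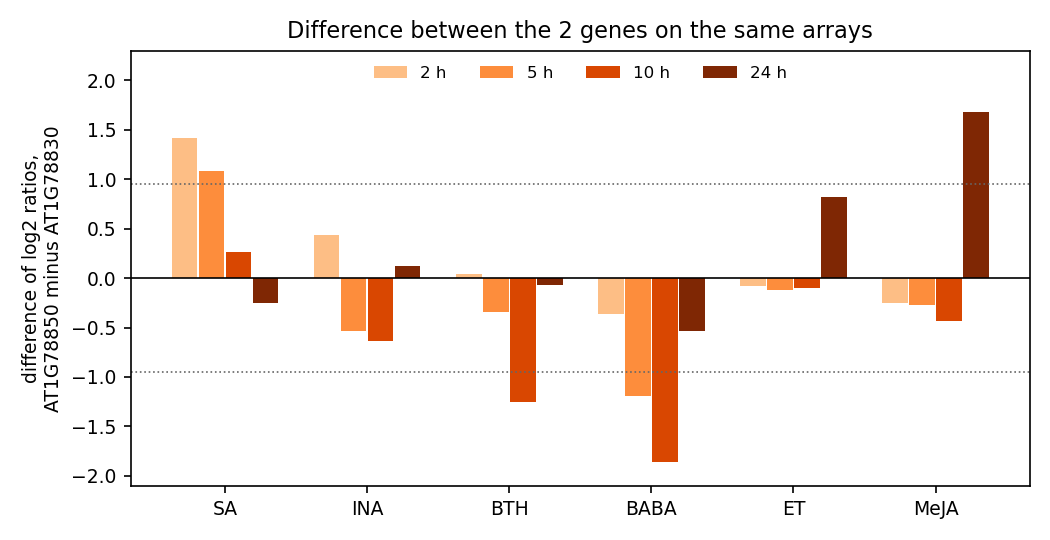
Difference of the log2 ratios, AT1G78850 minus AT1G78830, in each of the 24 conditions, grouped by agent with 1 bar for each time. Dotted lines mark 0.95 above and below 0, the largest difference between 2 spots of the same gene. The bars reach 1.68 at 24 h of MeJA and -1.86 at 10 h of BABA.

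Across the 24 conditions, which share times and the kind of untreated RNA, the ratios of the genes correlated with r = 0.644 (Spearman 0.656), and with r = 0.667 after the 2 conditions farthest from the median of AT1G78830 were left out. Each gene held rank 3 of 179 genes by likeness to the other, whose median r was 0.018 for AT1G78830 and 0.034 for AT1G78850. The 5 genes most like AT1G78830 were AT5G61590 (DEWAX, an AP2/ERF transcription factor that represses wax synthesis; r = 0.716), AT1G69840 (a band 7 protein of the hypersensitive-induced-response family; 0.650), AT1G78850, AT2G45180 (a lipid-transfer-type protein; 0.641) and TUA5 (0.630). Those most like AT1G78850 were AT2G45180 (0.719), AT1G69840 (0.649), AT1G78830, AT3G61260 (a remorin; 0.638) and AT2G39400 (an alpha/beta hydrolase; 0.596 over 21 conditions). AT2G45180 and AT1G69840 thus stood on both lists. Likeness by r takes no account of level. AT3G61260 had means from -1.42 under INA to -1.07 under SA, and TUA5 was below 0 under every agent. AT1G69840 and AT2G39400 had means above 0 under every agent, and those of AT5G61590 and AT2G45180 had either sign. After agent means were removed, so that time courses alone were compared, the r of the pair was 0.613, and the ranks were 18 of 179 for AT1G78830 and 28 of 179 for AT1G78850.

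Other lectin genes gave a wider frame. Of 7 listed genes with this lectin domain and no kinase, 3 were on the array, the pair and AT5G18470. Of 39 receptor kinases with the domain 1 was present (AT5G24080), of 47 jacalin-related lectins 3 were present (AT1G52000, JAL33 and JAL34), and of 10 legume-type lectins none. Beside the pair, AT1G52000 had enough values for the test and 4 genes did not. AT1G52000 had fitted means of -2.06 ± 0.26 under BABA, -1.98 ± 0.26 under BTH, -1.15 ± 0.26 under SA, -1.10 ± 0.31 under INA (3 values, whose own mean was -1.002) and -0.89 ± 0.26 under ET, and rose under MeJA to 2.59 ± 0.26, with adjusted p-values up to 0.0064 (limma). Under MeJA 22.2% of the 180 genes were called higher. In either direction, 120 of the 180 were called under BABA, 108 under BTH, 131 under SA, 108 under INA and 97 under ET. JAL34 (AT3G16460) had 1.88, 2.83, 2.00 and 1.49 at 2, 5, 10 and 24 h of MeJA, and JAL33 (AT3G16450) had 0.98, 0.83 and 0.48 at 2, 5 and 10 h. The kinase gene AT5G24080 had 9 values, from 0.62 to 1.72.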

How the data were processed

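The deposited values are log ratios for 2560 spots, taken as log2 of Cy5 (treated) over Cy3 (untreated). Per the labels, a ScanArray Lite read the slides and ScanArray Express calculated the spot signals. How the authors corrected background, filtered spots and normalized, and which base the logarithm has, is not given in the sources used here. The values run from -10.6 to 10.9, which a base of 10 would not fit, and a natural logarithm was not excluded. Signal over background cannot be judged from ratios. The direction follows the dyes named in the labels.

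Conditions were taken from the sample titles, which write JA where other fields name methyl jasmonate. In 2 cases another label field disagrees: 2 h in a source name of INA 10 h (array 1), and 5 h in a protocol of ET 10 h. A closing line without values was dropped, and missing spots stayed missing. Repeat arrays of a condition shared at most 1 identical spot value. Gene names came from the annotation of the platform (884 spots with 1 gene, 0 with several, 1676 unnamed), with 415 of 416 genes matched to TAIR10.1.

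On 23 of 27 arrays the median lay more than 0.2 from 0, and each array was centred on its median. A gene's spots were averaged first and repeat arrays second. Genes with values in at least 20 of 24 conditions and 3 of 4 times of each agent were tested (180 genes, 137 complete). R 4.3.3 and limma 3.58.1 fitted agent means plus sum-to-zero time terms (prior 8.16 and residual 15 degrees of freedom), and a second model a mean per agent and phase. Tests are two-sided, with Benjamini-Hochberg adjustment over genes. The 24 h minus 2 h contrast, the tests of the gene difference between agents and times, and the fit without MeJA 24 h were added after seeing the data. The untreated RNA's own spread was not estimated. The fits were also run on simulated data with independent normal noise. That noise held no shift common to an array and no correlation between genes, so it does not test the fits under these.

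The numbers of the repeat arrays were treated as pairing them, since the differences between second and first arrays correlated over 123 genes with r = 0.583, 0.533 and 0.438 between the 3 conditions. The labels say only that such arrays shared their RNA. Genes beside the pair were named by rule: the 5 tested genes most like each member by Pearson r over at least 20 conditions, and lectin genes on lists. The genes, lists and tests were chosen with earlier results of these data known. No sequences of the genes or probes were used here. The purple acid phosphatase listed with the lectins was not among the named spots.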

Additional observations from a re-analysis of the deposited data

Results flagged for a closer look

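Within 2 time courses of AT1G78830 the 24 h value stood apart from the other 3 times. Under BTH it was 0.24, and the other times lay between 1.53 and 1.63. The gap came to 0.926 of the whole range, above the 95% critical value that Dixon's test gives for 4 values. However, the BTH 5 h value averages 2 arrays of the same RNA that read 2.08 and 1.12, both outside the span of 1.53 to 1.63. The flag therefore rests on that average. With the first array alone the range would reach up to 2.08, and with the second alone the gap would end at 1.12. Either makes the gap a smaller share of the range, and that share was not computed. Under ET the 24 h value was 0.029, against 1.70 to 2.05 at the earlier times, with a gap at the edge of that critical value. In all, 12 groups of 4 times were examined, and chance flags about 1 in 20. The times are not replicates, and in both cases the value set apart is the last of the series.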

How the results depend on the processing

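Of the log2 differences of the pair, 29 passed their threshold (9 agent means, 16 pairs of agents, and late minus early and 24 h minus 2 h of both genes). The F-tests and the results of other lectin genes are not in this count. All 29 kept their direction under every alternative that could be fitted (572 comparisons of value and alternative), and 492 of these stayed past the threshold. The cause of the lost calls was not tested.

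Without centring, the AT1G78830 mean passed under SA (0.85), turned to 0.12 under MeJA, and its late minus early (-0.92) did not pass. Signs of uncalled differences turned as well: AT1G78850 BTH minus SA to -0.33 and BABA minus SA to -0.26, and AT1G78830 late minus early under BABA to 0.0405. On the TUA5 scale AT1G78830 was 1.22 under SA and turned to 0.75 under MeJA, and AT1G78850 was 0.92 under MeJA, all past the threshold. There the 24 h contrast of AT1G78850 (-0.61) and late minus early of AT1G78830 (-0.57) did not pass, AT1G78850 BABA minus SA turned to -0.74, BABA minus INA to -0.31, BABA minus BTH to -1.09 and ET minus BTH to -0.29, and AT1G78830 BABA minus BTH turned to -0.51 and ET minus BTH to -0.82. Of these reversed differences, AT1G78850 BABA minus BTH (adjusted p = 0.0069, limma) and AT1G78830 ET minus BTH (adjusted p = 0.018) passed the threshold in the new direction. After quantile normalization AT1G78830 was 0.013 under MeJA, its BABA minus BTH -0.18 and ET minus BABA 0.33, and AT1G78850 BABA minus BTH -0.42. With scaled arrays the last was -0.12 and AT1G78830 ET minus BABA 0.16.

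Without a term for time, the means were unchanged and calls were lost for AT1G78850 under SA (0.69), INA (0.54), BTH (0.85) and BABA (0.85), for AT1G78830 under INA (0.69), and for 13 of the 16 pairs. Of the 16 pairs, 9 were lost without centring, 7 on the TUA5 scale, 7 without 5 h, 6 without 10 h, and at most 4 under any other setting. The second spot alone gave AT1G78850 0.47 under INA, no longer past the threshold, -0.045 under MeJA and -0.19 for BABA minus BTH.

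Leaving out each time, the MeJA 24 h condition, or the first or second of the repeat arrays gave AT1G78850 0.28 to 1.03 under SA, 0.20 to 0.88 under INA and -0.32 to 0.27 under MeJA, and AT1G78830 -0.085 to 0.13 under SA, 0.48 to 1.13 under INA and -0.45 to 0.28 under MeJA. In the same settings AT1G78830 MeJA minus SA ran from -0.53 to 0.17 and AT1G78850 BABA minus BTH from -0.077 to 0.069. The difference between the genes ran from -0.25 to 0.087 when an agent, a time or an array set was left out. With the replicate number as a block on all 27 arrays, the AT1G78830 ET minus INA call was lost and AT1G78850 BABA minus BTH turned to -0.062. The block changed no other call. Of the 5 genes most like each member, 1 of 5 was shared for AT1G78830 and 2 of 5 for AT1G78850 after agent means were removed. Counts of called genes moved by over 1.5 times for MeJA (134 on the TUA5 scale, 83 as reported), 24 h minus 2 h (116 on the TUA5 scale and 41 without centring, 77 as reported) and late minus early (16 without centring, 45 as reported).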

Other observations

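A further curculin-like lectin gene on the array, AT5G18470, had values in 20 of 24 conditions and missed the filter of the main test. Under BABA its log2 ratios were 3.03, 5.06, 6.06 and 3.64 at 2, 5, 10 and 24 h. At 10 h of BABA it thus stood far above AT1G78830 (1.95) and AT1G78850 (0.08). Under ET it had 1.15, 2.07, 4.07 and 1.48 at the 4 times, and under BTH 0.65, 1.53, 3.04 and 1.78. INA gave 1.75, 2.16 and 0.58 at 5, 10 and 24 h, SA gave 0.44, 1.42 and 1.11 at the same times, and MeJA gave 0.76 and 0.47 at 5 and 10 h. Its highest value lay at 10 h under each of the 5 agents other than MeJA. With the filter relaxed to 2 values for each agent (220 genes tested), AT5G18470 had fitted means of 4.45 ± 0.26 under BABA, 2.19 ± 0.26 under ET, 1.75 ± 0.26 under BTH and 1.10 ± 0.31 under INA, with adjusted p-values up to 0.0051 (limma). The fitted means were 0.59 ± 0.31 under SA (adjusted p = 0.093) and -0.13 ± 0.39 under MeJA (adjusted p = 0.80). For INA, SA and MeJA the fit makes up for conditions without a value through the time terms: the means of the observed values were 1.496 under INA and 0.99 under SA (3 values each) and 0.61 under MeJA (2 values). BABA exceeded SA for this gene by 3.85 ± 0.40 (adjusted p = 1.1e-06). The 24 h minus 2 h contrast was 0.89 ± 0.43 (adjusted p = 0.098). Over the 20 conditions its ratios correlated with r = 0.614 with AT1G78830 and 0.139 with AT1G78850, given as a description. The share of the 220 genes called is not given here. Of the 180 genes in the main test, 33.9% were called higher under BABA, 32.2% under ET, 31.7% under BTH and 32.8% under INA. For BABA minus SA the share was 20%.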
